A study of Mus musculus with 12 samples.

Results

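Untreated RAW 264.7 cells that lack Parp14 were compared with untreated wild-type RAW 264.7 cells to see how the 2 lines differ before any stimulus. RAW 264.7 is a macrophage-like line of BALB/c mouse origin. The comparison sets 4 of 12 RNA-seq libraries against each other: KO replicates 1 and 2 (Parp14 -/-, untreated) and WT replicates 1 and 2 (no Parp14 mutation, untreated). The other libraries were KO and WT cells after 2 h of lipopolysaccharide (LPS), WT cells after 2 h with a Jak inhibitor, and WT cells after 2 h with both, with 2 libraries in each of these groups. How Parp14 was disrupted, how many KO clones were used and which inhibitor was given are not stated in the sources used here, so the 2 KO libraries may come from 1 clone. The labels name no separate cultures, so a p-value here reflects how far the sequenced samples scatter, and that scatter may be technical.

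PARP14 is an ADP-ribosyltransferase with macrodomains that attaches single ADP-ribose units to proteins, and it is known as a cofactor of STAT6 in the response to interleukin-4 and as a gene induced by interferon. Macrophages sense microbes through Toll-like receptors, answer with cytokines and type I interferon, take up particles and digest them in lysosomes. At rest they hold low levels of interferon-induced genes, fed by small amounts of interferon through Jak kinases and STAT factors.

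Levels are CPM, a gene's reads scaled to the total gene reads of its library. A difference is KO minus WT on the log2(CPM + 1) scale, which understates the change of genes near 1 CPM. Genes with a limma p below 0.05 after Benjamini-Hochberg adjustment over all 10899 tested genes were called; the fit blocked on replicate number. It held all 12 libraries, so the SE and p-value of each difference also draw on the spread within the LPS and inhibitor groups. Gene reads numbered 38.25 to 40.02 M in the 4 libraries. The share of alignments without a unique position was 33.2% and 34.2% in KO libraries, against 28.7% and 29.8% in WT libraries, and its part in the results below was not tested. Markers of macrophages were present in both lines: Csf1r, the receptor for M-CSF, had 2046 and 2279 CPM in KO cells and 2089 and 1998 CPM in WT cells. Their levels were not all equal: of 11 tested, 4 were called lower in KO cells (36.4%) and 2 higher (18.2%). The median difference of the 11 was -0.12. Over all tested genes 13.7% were lower and 10.9% higher. Markers of other cells were at or near 0. All 5 epithelial markers, among them Epcam, had no read in the 4 libraries, the 9 T and NK cell markers summed to 0.301 and 0.444 CPM in KO cells against 0.279 and 0.25 CPM in WT cells, and the 7 fibroblast markers summed to 1.2 and 0.706 CPM in KO cells against 1.06 and 0.825 CPM in WT cells. The B cell, neutrophil, mast cell and endothelial markers each summed to at most 0.575 CPM in a KO library and 0.583 CPM in a WT library.

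The targeted gene was measured first. Parp14 (chromosome 16, 35832874 to 35871544, minus strand, GRCm38) had 10.0 and 12 CPM in KO cells, against 76.4 and 99.7 CPM in WT cells. KO cells thus kept 12.5% of the WT level, a log2 difference of -2.89 (SE 0.058, limma adjusted p = 2.67e-13). Reads that remain do not show whether a protein is made, and the part of the gene they come from was not analysed here. Parp9, a neighbour on the same chromosome whose product pairs with DTX3L, had 55.5 and 55.6 CPM in KO cells and 65.7 and 71.3 CPM in WT cells, a difference of -0.30 (limma adjusted p = 0.000311). Dtx3l, the ubiquitin ligase gene beside it, differed by -0.19 and just missed the threshold (limma adjusted p = 0.0502). Of the other nearby genes Hspbap1 (0.45), Pdia5 (0.37) and Fam162a (0.23) were called higher, and Hacd2, Dirc2, Wdr5b, Sec22a and Kpna1 were not called, with differences between -0.02 and 0.12. Among 20 tested genes of ADP-ribose transfer and removal, 5 fell (Parp14, Tiparp, Parp9, Parp12 and Parp10) and 2 rose (Parp6 and Parp16), against 3 and 1 without the replicate block. The 5, which include the targeted gene, are 25% of the list, beside 13.7% lower among all tested genes. The 2 are 10%, beside 10.9% higher among all, and both lie on the chromosome 9 stretch described below.

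Across the transcriptome 1189 genes were higher in KO cells (10.9% of those tested) and 1496 were lower (13.7%), or 24.6% in all. Most of these differences were small: 90 genes were called and at least 2-fold higher (0.826%) and 91 at least 2-fold lower (0.835%). The first principal component of the 4 libraries held 75.2% of their variance and separated KO from WT, while the second held 20.3% and separated replicate 1 from replicate 2 in both lines. Without the replicate block 470 genes were called higher and 585 lower. With the scaling of the deposited table, which runs over all alignments and so follows the share without a unique position, 712 were higher and 3038 lower, and the median of all genes stood at -0.09. With 2 libraries a group, 5222 genes (47.9%) had groups that did not overlap, so separation alone says little about a gene.

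The largest rises came in genes that WT cells hardly used. Hpgd (chromosome 8, 56294585 to 56321043, plus strand), which encodes the enzyme that inactivates prostaglandin E2, had 201 and 119 CPM in KO cells, against 2.16 and 0.925 CPM in WT cells. Its difference was 5.98 (SE 0.171, limma adjusted p = 1.28e-11), about 104 times the WT mean. Tbx3 (chromosome 5, 119670669 to 119684724, plus strand), a T-box transcription factor known from limb and mammary development, had 60.4 and 50.1 CPM in KO cells and no read in either WT library. Against a floor of 3 reads over the WT group it was at least 1466-fold higher. After LPS it had 21.2 and 18.6 CPM in KO cells and again no read in WT cells. Of 16 T-box genes, 3 passed the filter on low values, and Tbx3 alone was called. Tbx20 was below the filter and not tested, with 0.476 and 0.601 CPM in KO cells against 0.0507 and 0.025 CPM in WT cells. Tfpi, an inhibitor of the tissue factor pathway of coagulation, followed the same pattern at a lower level, with 2.56 and 2.22 CPM in KO cells against 0.0254 CPM and no read in WT cells. These 2 genes were the ones under 0.1 CPM in all 8 WT libraries of the series and at least 1 CPM in all 4 KO libraries. No gene met the reverse rule.

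Other large rises were in genes of several functions. Nid2, a basement membrane protein, had 14.7 and 14.4 CPM in KO cells, against 0.127 CPM and no read in WT cells. Ccr2, the receptor for the monocyte chemoattractant CCL2, had 79.3 and 42.9 CPM in KO cells and 6.49 and 4.32 CPM in WT cells, a difference of 3.23. Its ligand gene Ccl2 went the other way, with 0.476 and 1.23 CPM in KO cells against 4.74 and 6.75 CPM in WT cells (-1.88, limma adjusted p = 3.72e-08). The receptor and the ligand gene therefore differed in opposite directions, each with groups that did not overlap. Slpi, an inhibitor of neutrophil proteases that dampens LPS responses, had 12.9 and 12 CPM in KO cells against 0.583 and 0.525 CPM in WT cells. Myo6 (an actin motor; 3.0), Scarf1 (a scavenger receptor; 2.93), Afp (alpha-fetoprotein; 2.65), Trp53i11 (2.60) and Maf (a transcription factor of tissue macrophages; 2.42) were also among the largest rises, as were Dmwd (3.47), Tcam1 (2.38), Zfp516 (2.32) and Chst1 (a sulfotransferase; 2.19). Each had both KO libraries above both WT libraries, as the selection required.

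The largest falls, besides Parp14, were in Ndrg4 and Gpnmb. Ndrg4 (chromosome 8, 95676980 to 95715119, plus strand), of the N-myc downstream regulated family, had 2.56 and 2.82 CPM in KO cells, against 31.5 and 39.3 CPM in WT cells (-3.30, SE 0.081, limma adjusted p = 2.87e-12). Gpnmb (chromosome 6, 49036546 to 49070929, plus strand), a glycoprotein of lysosomes and phagosomes, had 53.4 and 63.4 CPM in KO cells and 568 and 387 CPM in WT cells (-2.99, limma adjusted p = 1.37e-08). The WT means were 13.2 and 8.19 times the KO means of these genes. Plod2, a lysyl hydroxylase for collagen, had 0.677 and 0.444 CPM in KO cells against 6.39 and 6.52 CPM in WT cells. The creatine transporter gene Slc6a8 had 3.46 and 4.78 CPM in KO cells, against 20.3 and 23 CPM in WT cells. Creatine kinase Ckb was lower as well (-0.63), while Ndrg1, a relative of Ndrg4, was higher (0.66). Cd28 (-1.96), Bsn (-1.89), Kif21a (a kinesin; -1.86), Nacc2 (-1.80), Cd33 (a sialic acid binding receptor; -1.80), Tgm2 (a transglutaminase; -1.79), Amz1 (-1.56) and Slc24a5 (-1.53) completed the set with Hpgds.

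**Figure D1:**
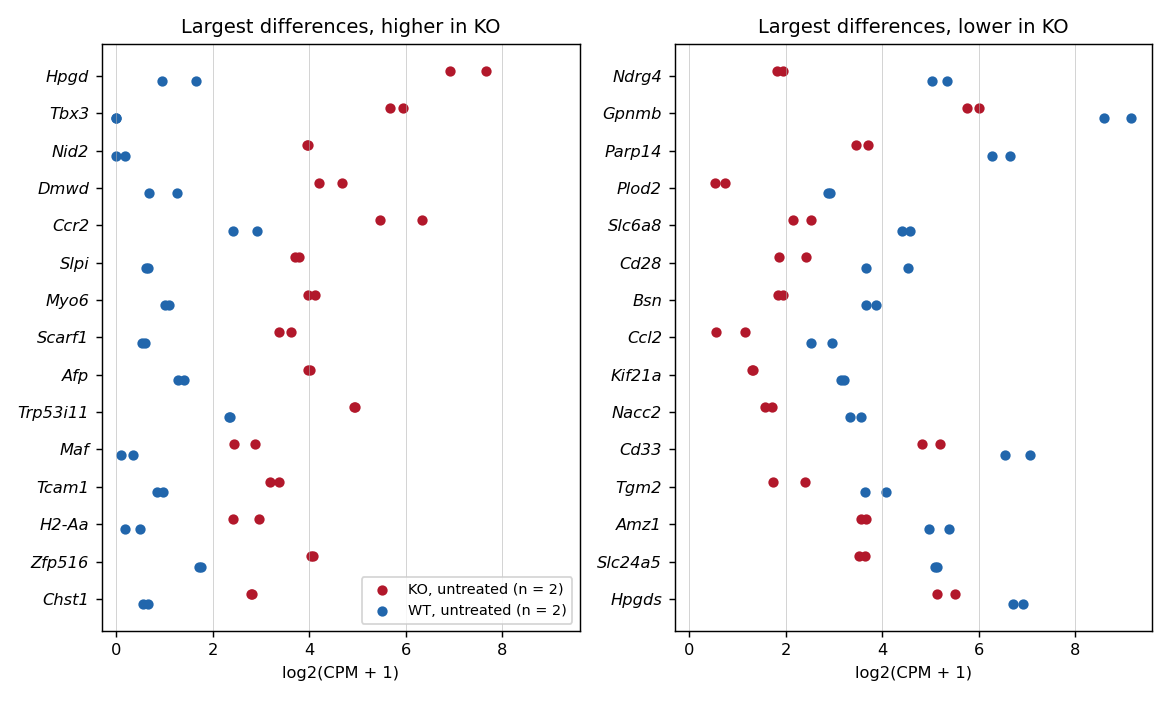
Levels of the 15 called genes with the largest differences in each direction, as log2(CPM + 1) on the horizontal axis, with 1 point per library (red KO, blue WT, 2 each). Points of the 2 groups do not overlap in any of these genes, which the selection required; Hpgd and Tbx3 stand at the top on the left and Ndrg4 and Gpnmb on the right.

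The endoplasmic reticulum (ER) folds secreted and membrane proteins with chaperones such as BiP (Hspa5) and GRP94 (Hsp90b1), and the unfolded protein response raises their genes through ATF6 and XBP1. Of 28 tested ER chaperone and unfolded protein response genes, 23 rose in KO cells and 1 fell, with a median difference of 0.34, against a median of -0.01 over all tested genes. Hspa5 had 2856 and 2966 CPM in KO cells, against 1881 and 2012 CPM in WT cells (0.58, limma adjusted p = 6.92e-07). Hyou1, an ER chaperone of the HSP110 kind, had 838 and 1026 CPM in KO cells and 515 and 580 CPM in WT cells, a difference of 0.76. Pdia4, a disulfide isomerase, had 346 and 374 CPM in KO cells and 210 and 219 CPM in WT cells, a difference of 0.75. Both KO libraries lay above both WT libraries for each of these genes. Sdf2l1 (0.69), Manf (0.69), Creld2 (0.67) and Herpud1 (0.56) rose too. The sensor gene Ern1 fell (-0.29), and Xbp1 (0.09) and Atf6 (-0.04) were not called. Leaving out 1 library at a time left 16 to 20 members higher, and 12 were called higher without the replicate block.

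Promoters of many such genes carry the ER stress element, a CCAAT box and a CCACG box 9 bases apart. In the windows from 250 bases before to 50 bases after the RefSeq gene starts (GRCm38.p6), CCAAT, any 9 bases and CCACG, on either strand, were found in 12 of 8398 tested genes with a promoter in the table, or 0.143%. Of the 22 ER genes with such a window 8 held them, or 36.4%, and all 8 rose; 20 of the 22 were called. A match describes the letters of the window and is not shown to be a used site. The matches are shown for the 6 of these 8 with the largest differences, each on the strand of the gene with the element in capitals. Hyou1, Pdia4, Sdf2l1 and Manf, which differed more than these 6, were not among the 8.
Hspa5, chr2:34772005-34772063, plus strand: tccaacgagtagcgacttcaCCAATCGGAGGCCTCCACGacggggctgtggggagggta
Hsp90b1, chr10:86705618-86705676, minus strand: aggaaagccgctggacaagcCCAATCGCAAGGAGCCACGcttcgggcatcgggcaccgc
Pdia6, chr12:17266471-17266529, plus strand: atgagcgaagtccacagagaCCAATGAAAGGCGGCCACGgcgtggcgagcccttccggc
Dnajc3, chr14:118937807-118937865, plus strand: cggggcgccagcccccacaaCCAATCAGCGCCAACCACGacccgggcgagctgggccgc
Creld2, chr15:88819500-88819558, plus strand (element on the other strand): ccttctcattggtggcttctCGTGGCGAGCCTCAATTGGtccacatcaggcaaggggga
Calr, chr8:84847055-84847113, minus strand (element on the other strand): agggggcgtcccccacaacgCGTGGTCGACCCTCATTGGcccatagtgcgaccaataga

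These 6 genes differed by 0.58 (Hspa5), 0.54 (Hsp90b1), 0.49 (Pdia6), 0.50 (Dnajc3), 0.67 (Creld2) and 0.35 (Calr, a lectin chaperone). The other matches were in Canx (0.15) and Syvn1 (0.23), whose rises were smaller.

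Targets of ATF4, the transcription factor of the amino acid and integrated stress response, moved up as well. Of 27 tested members 15 rose and 1 fell, with a median of 0.24, and 7 were called higher without the replicate block. Stc2, a secreted glycoprotein, had 11.6 and 13.2 CPM in KO cells, against 2.87 and 3.25 CPM in WT cells (1.72, limma adjusted p = 2.4e-08). Atf5, a relative of ATF4, had 23.6 and 19.5 CPM in KO cells and 8.85 and 7.80 CPM in WT cells (1.27). Trib3 (a pseudokinase; 1.19), Chac1 (which degrades glutathione; 0.94), Asns (asparagine synthetase; 0.47) and Atf4 itself (0.45) rose, and the cystine transporter gene Slc7a11 fell (-0.50). Atf3 stood at -0.52 and was not called. Of 20 cytosolic tRNA synthetases 7 rose, by at most 0.22 (Aars), and none was called lower by limma, edgeR or DESeq2 or reached an unadjusted limma p below 0.05 in that direction. The 7 are 35% of the synthetases, beside 10.9% higher among all tested genes. This list held 0 calls without the replicate block and 1 higher and 2 lower with the deposited scaling. The motif TGATGNAA, on either strand, was in 2.83% of the 8398 windows and in 7 of 24 ATF4 target windows (29.2%), of which 5 belonged to the 13 called genes. The Chac1 match is shown because that gene is among those that rose most.
Chac1, chr2:119351029-119351076, plus strand (element on the other strand): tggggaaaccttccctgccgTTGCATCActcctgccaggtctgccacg

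Sterol synthesis fell almost as a whole. The pathway from acetyl-CoA to cholesterol is switched on by SREBP2 when membrane sterols are low. Of its 22 tested genes 18 fell in KO cells and 1 rose, with a median difference of -0.40, and 17 were called lower without the replicate block. Hmgcs1, which makes HMG-CoA, had 86.0 and 79.6 CPM in KO cells and 142 and 135 CPM in WT cells (-0.74, limma adjusted p = 1.45e-08). Nsdhl, an enzyme that removes methyl groups from sterols, had 29.1 and 27.0 CPM in KO cells, against 44.2 and 45.3 CPM in WT cells (-0.66). Tm7sf2, a sterol reductase, had 2.41 and 2.51 CPM in KO cells and 4.67 and 4.15 CPM in WT cells (-0.64). All 3 had groups that did not overlap. Lbr, a nuclear envelope protein with sterol reductase activity, was the member that rose (0.17).

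Related lipid genes moved less uniformly. Of 19 genes of sterol uptake and SREBP control, 8 fell and 1 rose (4 and 0 without the replicate block). With the block the shares were 42.1% and 5.3%, beside 13.7% lower and 10.9% higher among all tested genes. The exporter gene Abca1, a target of LXR, had 33.8 and 33.9 CPM in KO cells, against 58.3 and 52.5 CPM in WT cells (-0.69), and the LXR gene Nr1h3 fell by 0.36. The late endosomal cholesterol carriers Npc1 (-0.36) and Npc2 (-0.35) fell. Of 19 genes of fatty acid synthesis, 7 fell, among them Acss2 (-0.55), Elovl1 (-0.29) and Acly (-0.27), and none was called higher by limma, edgeR or DESeq2 or reached an unadjusted limma p below 0.05 in that direction. The 7 are 36.8% of this list, and without the replicate block 3 members were called lower. Fasn (-0.14), Scd1 (0.05) and Srebf1 (0.01) were not called. The sterol response element letters TCACNCCAC were found in 1.42% of the windows and in 1 of 17 sterol synthesis windows, that of Hmgcs1, while CCAAT was in 16 of the 17 (94.1%), against 43.7% of all windows. The Hmgcs1 match is the one in the list.
Hmgcs1, chr13:119690194-119690242, plus strand: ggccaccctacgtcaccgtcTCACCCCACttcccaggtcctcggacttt

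Lysosomal genes fell to a similar extent. Lysosomes are the acid compartments in which macrophages digest what they take up, and many of their genes share an E-box read by TFEB, TFE3 and MITF. Of 47 tested genes of lysosomal enzymes, membrane proteins, the proton pump and these factors, 39 fell in KO cells and 3 rose, with a median of -0.33. Without the replicate block 23 were called lower. Ctsb, the protease cathepsin B, had 1474 and 1574 CPM in KO cells, against 2476 and 2447 CPM in WT cells (-0.69). Grn, which encodes progranulin, had 366 and 351 CPM in KO cells and 638 and 593 CPM in WT cells (-0.78). Lipa, the acid lipase, had 446 and 386 CPM in KO cells and 720 and 669 CPM in WT cells (-0.74). The KO values were below both WT values in all 3 genes. The summed CPM of the list were 11422 and 11475 in KO cells, against 16077 and 15035 in WT cells. The cathepsin genes Ctsc (0.55), Ctsl (0.53) and Ctsh (0.42) rose against the list, and among the factors Mitf (-0.41) and Tfeb (-0.26) fell while Tfe3 (0.10) was not called. The letters TCACGTGA were in 2.32% of all windows and in 6 of 36 lysosomal windows (16.7%), and all 6 genes were called lower. Of the 36 genes with a window 32 were called in either direction, so calls were common with or without these letters. Gla is shown because its window held the element more than once, and Mcoln1 as the calcium channel gene of the list.
Gla, chrX:134601206-134601253, minus strand: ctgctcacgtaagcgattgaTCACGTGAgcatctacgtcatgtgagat
Mcoln1, chr8:3500453-3500500, plus strand: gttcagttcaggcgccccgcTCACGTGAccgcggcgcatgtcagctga

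Gla, the alpha-galactosidase gene, differed by -0.61 and Mcoln1 by -0.33. Genes used by osteoclasts overlapped with this list. Of 11 tested, 6 fell (54.5%, beside 13.7% of all tested genes), or 3 without the replicate block. Among them the pump subunit gene Atp6v0d2 had 0.201 and 0.209 CPM in KO cells against 2.43 and 2.85 CPM in WT cells (-1.59). The acid phosphatase gene Acp5 also fell (-0.87). Mmp9, gelatinase B, went the other way, with 2.68 and 5.15 CPM in KO cells against 0.0507 and 0.125 CPM in WT cells (2.13).

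**Figure D2:**
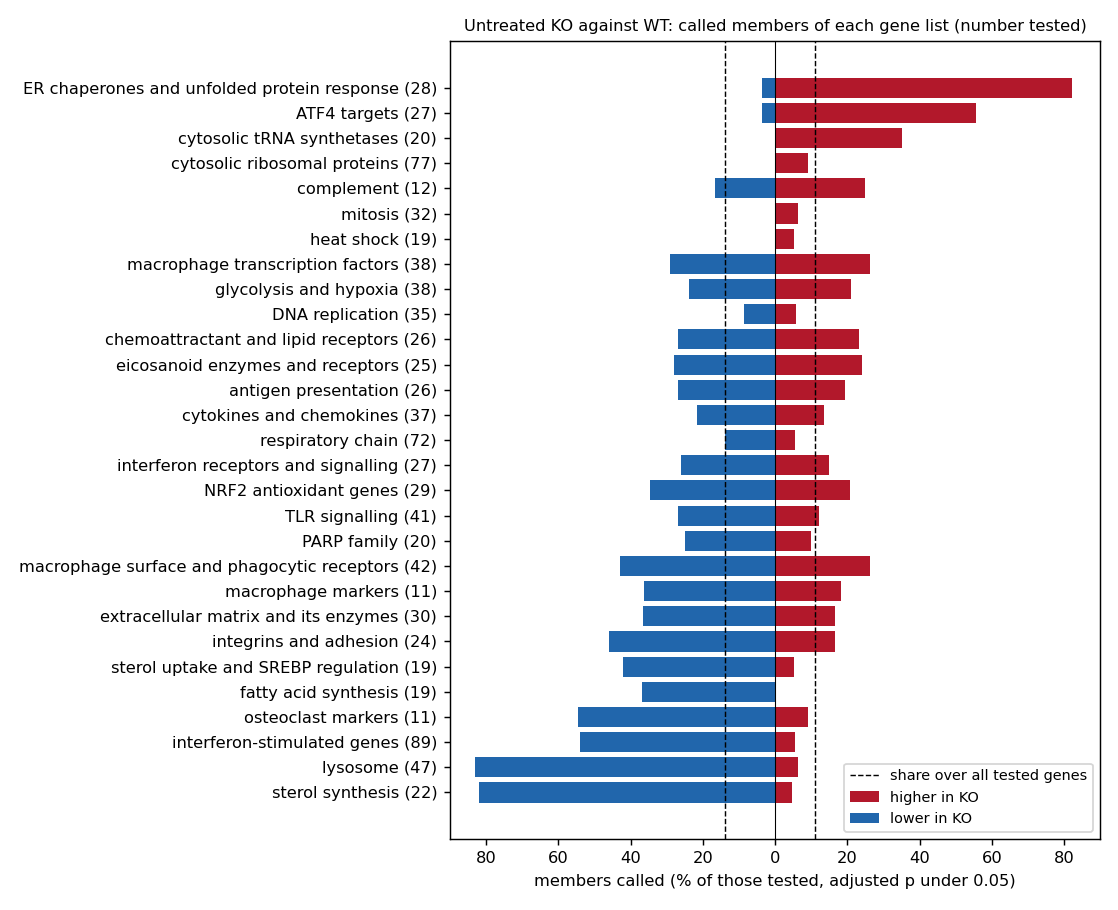
Members called in each gene list with at least 10 tested members, as a percent of those tested (red higher in KO, to the right, and blue lower in KO, to the left), with the number tested in brackets and dashed lines at the shares over all tested genes (10.9% higher and 13.7% lower). ER chaperones and ATF4 targets reach farthest to the right, and sterol synthesis, lysosome and interferon-stimulated genes farthest to the left along with osteoclast markers.

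Interferon-stimulated genes were lower in KO cells without any stimulus. Of 89 tested members 48 fell and 5 rose, with a median difference of -0.23, and 79 of the 89 lay below 0. Irf7, the factor that amplifies type I interferon production, had 15.3 and 20.7 CPM in KO cells, against 26.0 and 36.8 CPM in WT cells (-0.76, limma adjusted p = 1.43e-06). Usp18, which restrains interferon receptor signalling, had 19.9 and 28.4 CPM in KO cells and 31.9 and 45.2 CPM in WT cells (-0.66). Oas3, an RNA sensor, had 61.2 and 82.2 CPM in KO cells and 89.4 and 112 CPM in WT cells (-0.49). In each of these genes replicate 2 was higher than replicate 1 in both lines. The fit without the replicate block called 10 members lower and 2 higher, and it called neither Irf7 (limma adjusted p = 0.127) nor Usp18 (limma adjusted p = 0.18). Leaving out 1 library at a time with the block left 34 to 38 lower, with medians between -0.23 and -0.22.

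Genes of interferon receptors and signalling formed another list, which shares Irf7, Usp18, Stat2, Irf9 and others with the induced genes. Among its 27 tested genes 7 fell and 4 rose, or 1 each way without the replicate block. The 7 and 4 are 25.9% and 14.8% of the list, beside 13.7% and 10.9% of all tested genes. Of the 4, Tyk2 and Pias1 (0.26) lie on the chromosome 9 stretch described below. Stat2 (-0.26) and Irf9 (-0.21), parts of the complex that carries the interferon signal to the nucleus, fell with the induced genes. The receptor genes Ifnar1 (0.02) and Ifnar2 (0.03) and the kinase Jak1 (-0.04) were not called, while Jak2 (0.18) and Tyk2 (0.21) rose. Ifnb1, the gene of interferon beta, had no read in 1 library of each line and 0.0523 CPM in KO cells and 0.0507 CPM in WT cells in the other, so no difference was detectable at this depth. The 5 induced genes that rose were Ifi47 (0.62), Oasl1 (0.34), Ifitm3 (0.33), Sp110 (0.29) and Samd9l (0.23).

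The Jak inhibitor gave a second view of the resting level in WT cells. The 2 comparisons share the untreated WT libraries, so their values are set side by side only. In WT cells with the inhibitor against untreated WT cells, 4 genes of 10899 were called (0.0367%): Socs3 (0.61), Fos (0.48) and Cxcl2 (0.46) higher (0.0275%) and the noncoding RNA Neat1 (-0.83) lower (0.00918%). The median of the 89 interferon-stimulated genes was 0.02 with the inhibitor, against -0.23 in the KO comparison, and 36 of them lay below 0. Limma, edgeR and DESeq2 called 0 of the 89 with the inhibitor, and at an unadjusted limma p below 0.05 there were 6 higher and 4 lower. Irf7 differed by -0.03 and Usp18 by 0.10. The inhibitor libraries were taken after 2 h, and the KO cells carry the mutation at all times.

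After LPS the same list differed far more between the lines. In KO cells with LPS against WT cells with LPS, 78 of the 89 members were called lower (16.7% of all tested genes were) and 1 higher (14.9% of all), with a median of -0.76. The change of the KO difference with LPS was itself called for 55 of the 89, against 3.79% of all tested genes (1.67% with the difference moving up and 2.12% with it moving down). Rsad2, which encodes viperin, had 1.45 and 2.22 CPM in untreated KO cells and 2.71 and 3.9 CPM in untreated WT cells (-0.60), and its difference after LPS was -2.45. Ifit1, which binds viral RNA, differed by -0.51 untreated and by -1.86 after LPS.

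The interferon-stimulated response element is built of GAAA repeats. GAAA, any 2 bases and GAAA, on either strand, stood in 3.91% of all windows and in 34 of 73 windows of the list (46.6%). Of the 42 genes called in either direction with a window, 22 held it. Rsad2 and Ifit1 are shown because their difference grew with LPS, and Oas3 as a gene that was abundant at rest.
Rsad2, chr12:26456543-26456592, minus strand (element on the other strand): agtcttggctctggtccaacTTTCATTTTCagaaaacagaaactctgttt
Ifit1, chr19:34640765-34640814, plus strand (element on the other strand): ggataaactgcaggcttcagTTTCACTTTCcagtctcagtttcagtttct
Oas3, chr5:120777705-120777754, minus strand: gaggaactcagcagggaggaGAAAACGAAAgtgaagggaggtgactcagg

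**Figure D3:**
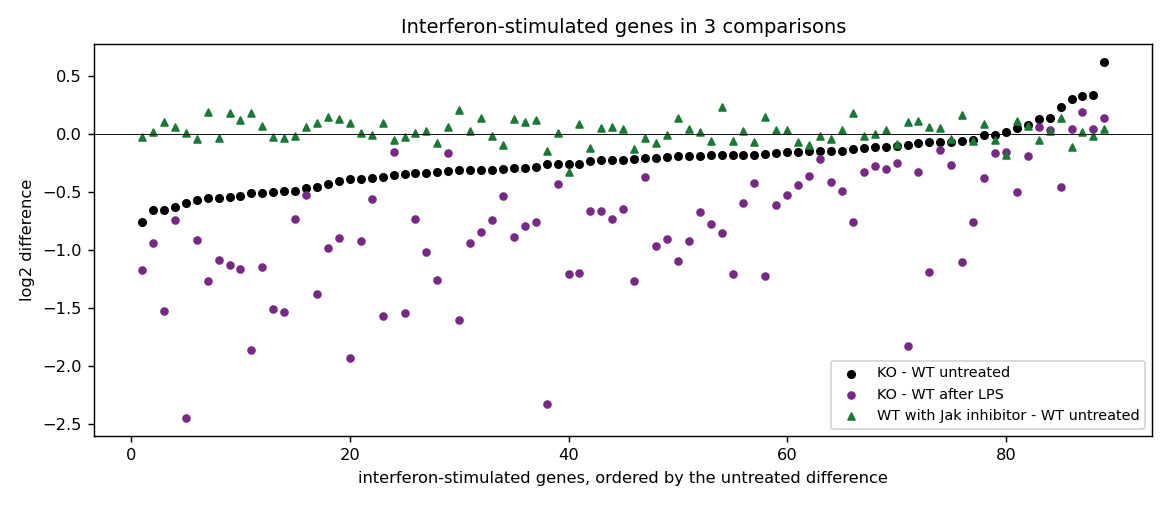
Log2 differences of the 89 tested interferon-stimulated genes in 3 comparisons, ordered along the horizontal axis by the untreated difference (black, KO minus WT; purple, KO minus WT after LPS; green triangles, WT with inhibitor minus untreated WT). The inhibitor points scatter around 0 (median 0.02), the untreated KO points lie mostly below it (median -0.23) and the LPS points lie lowest (median -0.76).

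MHC class II genes, which present peptides to helper T cells, were higher in KO cells, from a very low WT level. H2-Aa had 6.79 and 4.37 CPM in KO cells, against 0.406 and 0.125 CPM in WT cells (2.36, limma adjusted p = 5.06e-07). H2-Eb1 (2.35), H2-Ab1 (2.27) and H2-DMb1 (0.57) followed, and Ciita, the master activator of the class II genes, had 3.41 and 1.54 CPM in KO cells against 0.887 and 0.2 CPM in WT cells (1.15). Cd74, the invariant chain, stood at 136 and 137 CPM in KO cells and 136 and 135 CPM in WT cells and was not called. Class I genes went down: H2-D1 (-0.28), H2-K1 (-0.20), B2m (-0.20) and Tap1 (-0.21). In all, 5 of 26 antigen presentation genes rose and 7 fell (4 and 2 without the replicate block). With the block the shares were 19.2% and 26.9%, beside 10.9% and 13.7% of all tested genes. MHC genes are close copies of each other, so reads may be shared between them and single values are uncertain.

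Receptors and adhesion molecules shifted in both directions. Of 26 tested receptors for chemoattractants and lipid signals 6 rose and 7 fell (3 and 4 without the replicate block). With the block the shares were 23.1% and 26.9%, beside 10.9% higher and 13.7% lower among all tested genes. Beside Ccr2, the purine receptors P2ry12 (0.84) and P2ry13 (0.86), C5ar1 (0.59) and Fpr2 (0.74) rose. Cxcr4, the receptor for CXCL12, had 1.88 and 1.07 CPM in KO cells, against 7.35 and 3.05 CPM in WT cells (-1.25), and S1pr1, a receptor for sphingosine 1-phosphate, had 12.2 and 5.80 CPM in KO cells and 31.5 and 13.7 CPM in WT cells (-1.2). Cxcr3 (-1.07) and C3ar1 (-1.0) fell too. S1pr1 was not called without the replicate block (limma adjusted p = 0.173). Of 24 integrins and adhesion molecules 11 fell (45.8%) and 4 rose (16.7%), or 6 and 2 without the replicate block. Itga6, a laminin receptor chain, had 16.2 and 23.9 CPM in KO cells against 3.42 and 4.52 CPM in WT cells (2.06), while Itgal (-0.83), Selplg (-0.85), Itgax (-0.77) and the abundant Itga4 (-0.51) fell. Of 30 matrix genes and matrix enzymes 5 rose (16.7%) and 11 fell (36.7%), or 4 and 6 without the replicate block. The urokinase gene Plau (-1.13), Agrn (-1.08) and Tgfbi (-1.0) fell, and Timp2 (0.85) and Spp1 (osteopontin; 0.56) rose.

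Surface and phagocytic receptors of macrophages were among the lists with many calls on both sides: 11 of 42 rose and 18 fell (9 and 11 without the replicate block). With the block the shares were 26.2% and 42.9%, beside 10.9% and 13.7% of all tested genes. Adgre1, the F4/80 antigen, had 79.2 and 67.9 CPM in KO cells, against 153 and 133 CPM in WT cells (-0.95, limma adjusted p = 1.74e-09). Cd300lf (-1.10), Clec4a2 (-0.87), Trem2 (-0.49) and Cd68 (-0.29) fell. Siglec1, a sialic acid receptor of tissue macrophages, had 13.3 and 19.2 CPM in KO cells and 6.77 and 5.15 CPM in WT cells (1.3). Cd40 (1.25), Cd86 (0.80) and Mrc1 (0.62) rose. Lyz1 had 4973 and 4537 CPM in KO cells against 1752 and 1930.5 CPM in WT cells (1.37). It is a close copy of Lyz2, which was not called (-0.12), and reads may be shared between them.

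The transcription factors of macrophages were split as well, with 10 of 38 higher and 11 lower (4 and 5 without the replicate block). With the block the shares were 26.3% and 28.9%, beside 10.9% and 13.7% of all tested genes. Besides Maf, Ets2 had 139 and 146 CPM in KO cells, against 57.4 and 74.0 CPM in WT cells (1.12), and Klf4 (0.66) and Id3 (0.66) rose. Bhlhe41 (-1.05), Rxra (a partner of nuclear receptors such as LXR; -0.88), Irf4 (-0.72) and Id2 (-0.66) fell. The lineage factor Spi1, which encodes PU.1, stood at -0.08 and was not called. Bhlhe41 was not called without the replicate block (limma adjusted p = 0.0741).

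Of 37 tested resting cytokine and chemokine genes 5 rose and 8 fell (3 and 3 without the replicate block), and Tnf (0.04), Il6 (-0.02) and Il1b (0.20) were not called. The calls were 13.5% and 21.6% of this list, beside 10.9% higher and 13.7% lower among all genes. Il1rn, the interleukin-1 receptor antagonist, had 13.8 and 22.4 CPM in KO cells, against 27.5 and 41.6 CPM in WT cells (-0.90), and Ccl3 had 33.3 and 53.4 CPM in KO cells and 56.3 and 106 CPM in WT cells (-0.86). Neither was called without the replicate block (limma adjusted p = 0.0888 for Il1rn and 0.308 for Ccl3). Lif (0.68), Cxcl2 (0.59) and Csf3 (0.50) rose from low levels. Of 41 Toll-like receptor pathway genes 11 fell (26.8%) and 5 rose (12.2%), beside 13.7% and 10.9% of all genes. The falls were led by Tlr3 (-0.83) and Tlr13 (-0.76), and the rises by Tlr8 (0.85) and Tlr1 (0.84). Without the replicate block 4 fell and 3 rose, and with the deposited scaling 21 fell and 5 rose. The LPS receptor Tlr4 (0.14) and Myd88 (-0.11) were not called.

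Prostaglandin genes differed along the pathway. Hpgds, which forms prostaglandin D2, had 44.3 and 34.0 CPM in KO cells, against 120 and 103 CPM in WT cells (-1.50, limma adjusted p = 3.02e-10). Ptgs2, the inducible cyclooxygenase, had 31.4 and 45.2 CPM in KO cells and 16.8 and 28.0 CPM in WT cells (0.77), and Ptges, a prostaglandin E2 synthase, rose by 0.71. Ptges2, named as another prostaglandin E2 synthase, fell (-0.26), and the constitutive cyclooxygenase Ptgs1 (-0.03) was not called. The prostacyclin receptor Ptgir rose (1.06) and the leukotriene C4 synthase Ltc4s fell (-1.02). In all, 6 of 25 eicosanoid genes rose and 7 fell (3 and 4 without the replicate block). With the block the shares were 24% and 28%, beside 10.9% and 13.7% of all tested genes.

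Lists of replication, mitosis, ribosomal protein, respiratory chain and heat shock genes stayed near the background or below it. That background is 10.9% higher and 13.7% lower among all tested genes. Of 35 DNA replication genes 2 were higher and 3 lower, and of 32 mitosis genes 2 were higher (Anln and Kif23). Among 77 cytosolic ribosomal protein genes 7 were higher, and among 72 respiratory chain genes 4 were higher and 10 lower. Of 19 heat shock genes 1, Chordc1, was higher (0.32). In the mitosis, ribosomal and heat shock lists limma, edgeR and DESeq2 called 0 members lower, and at an unadjusted limma p below 0.05 there was 1 mitosis gene. With the deposited scaling 8 mitosis genes, 9 ribosomal protein genes and 25 of 71 respiratory chain genes were called lower. Without the replicate block the respiratory chain list held 1 call, lower. NRF2 antioxidant genes (6 higher, 10 lower of 29), glycolysis and hypoxia genes (8 higher, 9 lower of 38) and complement genes (3 higher, 2 lower of 12) were mixed. Their shares higher and lower were 20.7% and 34.5%, 21.1% and 23.7%, and 25% and 16.7%, in that order. Hmox1 (0.56) and Gstp1 (1.60, a gene with a close copy in the genome) rose in the NRF2 list, Pkm, the pyruvate kinase gene, rose (0.48) and Aldoc fell (-0.67) in the glycolysis list, and Cfp, the gene of properdin, rose (0.72).

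Many small rises lay side by side on chromosomes. On chromosome 9, from its first tested gene to 70 Mb (Alkbh8 to Bnip2), 231 of 330 tested genes were higher in KO cells and 12 were lower, with a median difference of 0.31. On the rest of chromosome 9, 14 of 281 were higher and 50 lower, with a median of -0.01. The typical gene of the stretch with at least 5 CPM in WT cells had 1.25 times its WT level. Near the end of chromosome 4, from Per3 to Sdf4 (151003652 to 156013610), 39 of 50 genes were higher, with a median of 0.30, and at the start of chromosome 2, up to 12 Mb, 24 of 28 were lower, with a median of -0.30. In these 2 stretches limma, edgeR and DESeq2 called 0 genes the other way, and none reached an unadjusted limma p below 0.05 there. The stretches and their edges were picked after their values were seen. These counts are therefore descriptions, and the lack of opposite calls inside the edges is no separate result.

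Relative to the untreated WT mean, the chromosome 9 stretch had a median of 0.31 and 0.31 in the 2 untreated KO libraries, and 0.00 and 0.00 in the WT libraries. The chromosome 4 stretch had 0.27 and 0.35 in KO libraries and that of chromosome 2 had -0.31 and -0.27, against values between -0.02 and 0.02 in WT libraries. In the WT libraries with the inhibitor the chromosome 9 stretch had -0.02 and 0.00. After LPS, in separate libraries, the KO minus WT medians were 0.29 on the chromosome 9 stretch, 0.37 on that of chromosome 4 and -0.32 on that of chromosome 2. Runs of 25 neighbouring tested genes with a median beyond 0.2 were found at these 3 places and at a short one on chromosome 6, between Usp18 and Tpi1, with 2 of 27 genes higher and 14 lower. The joined runs reached past the edges given above. They held 44 higher and 7 lower of 70 genes on chromosome 4. On chromosome 2 they held 26 lower and 2 higher of 40, and on chromosome 9 they held 231 higher and 13 lower of 335. Cell lines can gain or lose chromosome segments and clones of a line can differ in them. DNA was not analysed here, and whether copy number differs between the lines was not tested.

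The 3 stretches held 270 of the 1189 higher calls (22.7%), and without their genes 919 of 10491 were higher and 1460 lower. Of the 7 ribosomal protein genes called higher, 4 (Rpl4, Rps25, Rps27l and Rplp1) are on the chromosome 9 stretch and Rpl22 is on that of chromosome 4. Anln, Kif23, Chordc1, Parp6, Parp16, Pkm, Tyk2 and Hyou1, all called higher, are also on the chromosome 9 stretch, as is Acp5, which fell. So are Keap1 (0.42) of the NRF2 list and Cox5a (0.37) of the respiratory chain, while Atp5c1 (-0.38) and the replication gene Mcm10 (-0.22) are on that of chromosome 2. Of the ER genes Hyou1 alone is on the chromosome 9 stretch, and the other 27 held 22 higher calls with a median of 0.34. None of the ATF4 targets, tRNA synthetases or interferon-stimulated genes is on it.

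**Figure D4:**
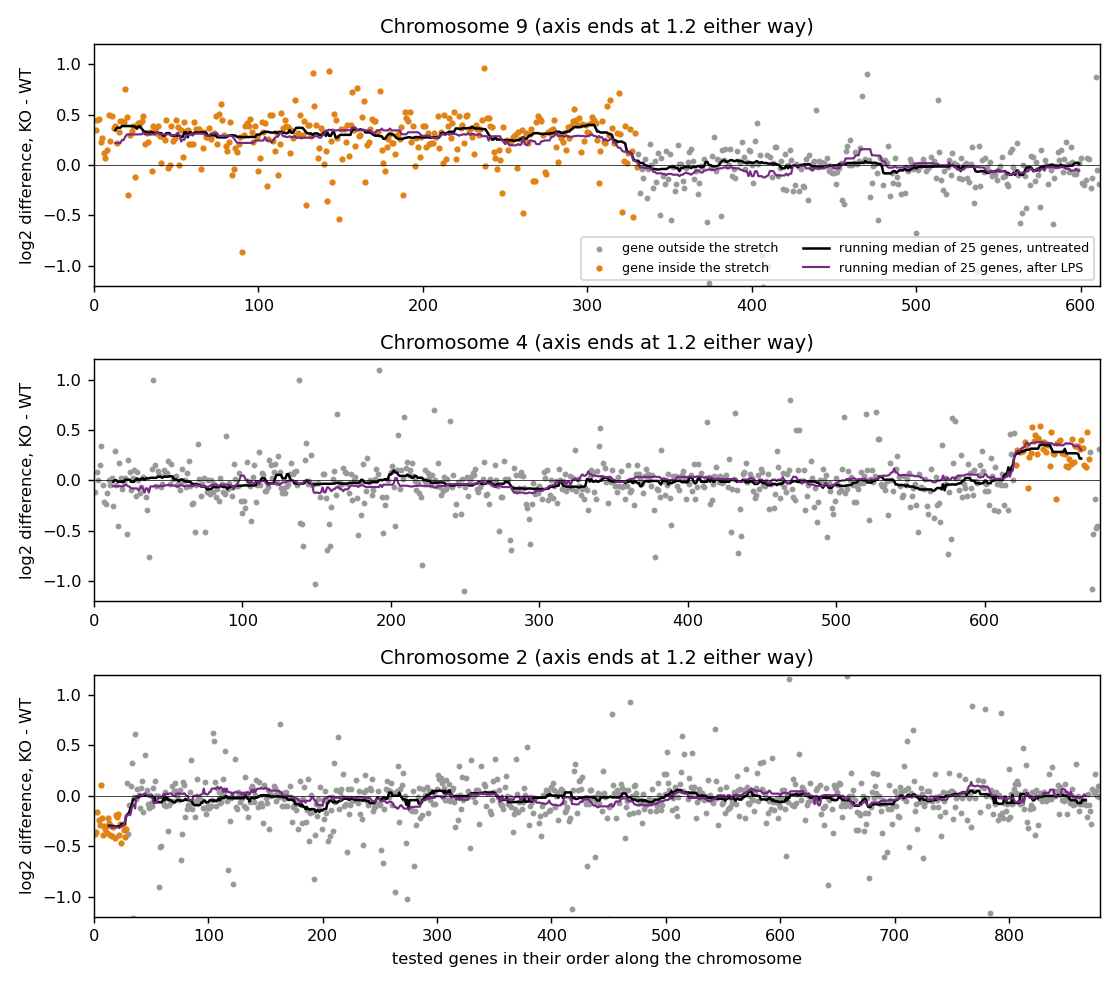
Log2 difference, KO minus WT in untreated cells, of each tested gene in its order along chromosomes 9, 4 and 2 (orange inside the stretches described, grey outside), with running medians over 25 genes untreated (black) and after LPS (purple). Both medians stand near 0.3 on the chromosome 9 and chromosome 4 stretches and near -0.3 on that of chromosome 2, and return to about 0 outside them; 37 of 2167 genes lie beyond the axis ends at 1.2.

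Most genes called without treatment were also called after LPS, from other libraries of the same fit, which share its estimate of the spread. Of the 1189 genes higher in untreated KO cells, 835 (70.2%) were also higher in KO cells after LPS and 11 were lower, and these 835 were 51.4% of the genes called higher after LPS. Of the 1496 lower genes, 1053 (70.4%) were lower again and 16 were higher, and the 1053 were 58.0% of those called lower after LPS. Among the genes at least 2-fold apart, 84 of 90 higher and 84 of 91 lower genes were called the same way after LPS, and none the opposite way; 0.927% and 1.07% of all tested genes were called and at least 2-fold higher and lower after LPS. After LPS 17 of 28 ER genes were called higher (14.9% of all genes were), and 19 of 22 sterol synthesis genes and 33 of 47 lysosomal genes were called lower (16.7% of all). The same clones may underlie both comparisons, so this repeats the lines and not the knockout.

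The change of the KO difference with LPS was called for 79 of the higher (6.64%) and 143 of the lower genes (9.56%), beside 3.79% of all tested genes. The untreated difference selected these genes and is also part of the change tested. A share above that of all genes can therefore arise from the selection alone, and the same holds for the sign changes below. Hpgd had 11.5 and 5.92 CPM in KO cells after LPS, against 0.197 and 0.0731 CPM in WT cells after LPS, and its difference shrank to 3.04. For 55 genes called without treatment the difference changed sign with LPS and that change was called, and 27 of these were also called after LPS. Cd40 was higher in untreated KO cells, with 9.83 and 8.78 CPM against 3.27 and 3.40 CPM in WT cells, but after LPS it had 107 and 112 CPM in KO cells and 110 and 137 CPM in WT cells (-0.16, not called). Sema4b, a semaphorin, was lower without LPS (-0.34) and higher after it (0.61), and Arl11, a small GTPase gene, was lower without LPS (-0.45) and higher after it (0.75). Bcar3, Dhrs9 and Fpr2 were called without treatment but not after LPS.

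**Figure D5:**
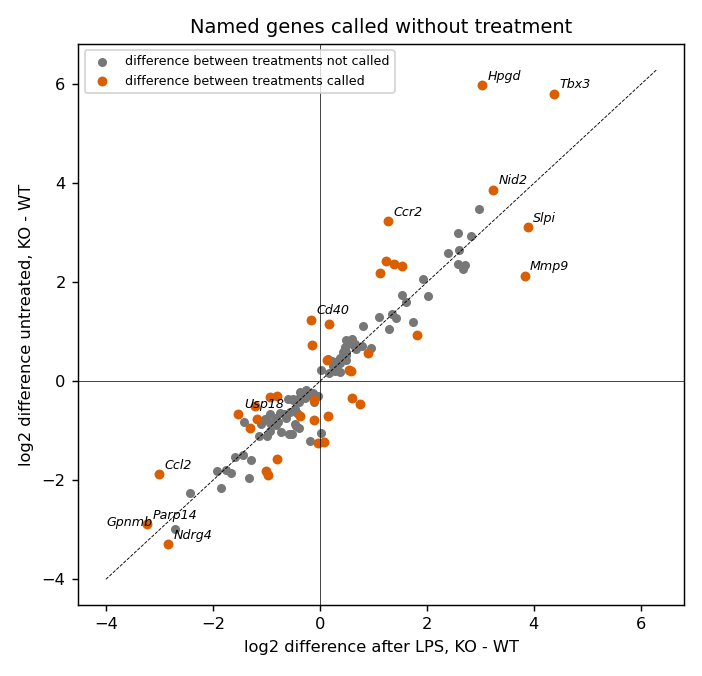
Log2 difference, KO minus WT, without treatment (vertical) against that after LPS (horizontal) for the named genes called without treatment, with genes whose difference changed with LPS by the interaction test in orange and a dashed line of equality. Most points lie near the line, Hpgd (5.98 and 3.04) and Ccr2 (3.23 and 1.28) lie above it, and Slpi (3.11 and 3.88) and Mmp9 (2.13 and 3.83) lie below it.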

How the data were processed

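The authors deposited CPM per gene symbol and library. Per the submitters' processing notes, TopHat2 2.1.0, HTSeq and edgeR were used with builds mm10 and GRCm38; these notes give no annotation release or strand setting. The table had 24421 symbols and 5 lines that are not genes, which held 36.0 to 40.6% of the alignments of the 4 untreated libraries; 4 further per-sample columns matched no label and were not used.

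Each column was divided by its sum over genes. Genes reaching 1 CPM in 2 or more libraries were tested with limma 3.58.1 (R 4.3.3, trend) on log2(CPM + 1), in 1 fit of 12 libraries with 6 group means and the replicate number as a block (residual degrees of freedom 5, prior 8.91), adjusted by Benjamini-Hochberg. The pairing comes from the data: replicate 1 minus 2 differences correlated in all 15 pairs of groups (0.468 to 0.737; untreated KO with untreated WT 0.63). No label gives a common day or batch. Values were whole reads within 0.02 reads (100%), so edgeR 4.0.16 and DESeq2 1.42.0 were run on recovered reads as alternatives; edgeR called 2811 genes and DESeq2 2178.

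Members and gene lists were chosen with earlier results of these data known. Genes named were the 15 largest called differences in each direction (5 CPM or more on average in the higher group, no overlap), up to 4 per list, neighbours of Parp14 and genes whose sign changed with LPS; other members were named after their values were seen, as were Tfpi and the 4 genes called with the inhibitor. Predicted genes and 27 symbols turned into dates were not named, and results for some other genes are not reported here. Positions are from GENCODE M21 (GRCm38) for 10842 of the tested genes and promoters from RefSeq (GRCm38.p6). The method was tested on simulated data.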

Additional observations from a re-analysis of the deposited data

Results flagged for a closer look

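For 23 of 46 named genes looked at, the KO minus WT difference itself changed between untreated and LPS-treated cells (limma interaction, replicate block, adjusted over 10899 genes). The same was called for 3.79% of all tested genes. Some of the 46 were named because this change was called and the sign changed. Others were named for a large untreated difference, which is part of the change tested. The count of 23 therefore does not measure how common such changes are. The values that follow are the difference after LPS minus the untreated difference on the log2 scale. The cause was not tested for any of them.

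Of the genes higher in untreated KO cells, the difference became smaller for Hpgd (-2.94), Ccr2 (-1.96), Tbx3 (-1.43), Cd40 (-1.41), Maf (-1.19), Chst1 (-1.06), Tcam1 (-0.99), Fpr2 (-0.88), Zfp516 (-0.78) and Nid2 (-0.63), and larger for Slpi (0.77). Of the genes lower in untreated KO cells, it moved up for Bcar3 (1.3), Arl11 (1.21), Sema4b (0.94), Bsn (0.91), Dhrs9 (0.85), Nacc2 (0.79), Amz1 (0.77) and Ndrg4 (0.45). It moved farther down for Ccl2 (-1.12), Parp9 (-0.50) and Parp14 (-0.35), and likewise for Dtx3l (-0.90), which was not called without treatment.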

How the results depend on the processing

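Without the replicate block 470 genes were higher and 585 lower in untreated KO cells, against 1189 and 1496 with it; after LPS 1510 genes were called in all (3438 with the block), 45 by the interaction (413) and 0 with the inhibitor (4). With the deposited scaling 712 were higher and 3038 lower. Asking for at least 2-fold left 90 higher, 91 lower, 218 after LPS and 56 by the interaction. Without a filter the interaction called 254 and the inhibitor comparison 1. Leaving out 1 library at a time gave 766 to 916 higher and 936 to 1208 lower, 2275 to 2607 called after LPS and 236 to 333 by the interaction. Of 138 named genes called, 98 were called without the block, 96 were called under every setting, 22 lost the call without at least 1 library, and none reversed. With the deposited scaling the medians of the tRNA synthetase, antigen presentation, glycolysis, heat shock, DNA replication and ribosomal protein lists changed sign. Inhibitor settings and the chromosome stretches were added after the data were seen. With 2 libraries a group a lone library was assumed to vary like the others, and genes under 1 CPM were measured on few reads.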
